A study of Arabidopsis thaliana with 12 samples.

Results

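Phenylpropanoid metabolism of Arabidopsis thaliana was followed through 34 loci of the 33607 genes listed in each of the 4 deposited tables. The 34 were taken by locus: 9 of the shared entry steps, 9 lignin enzymes, 7 flavonoid enzymes, 6 regulators and 3 UGT72E glucosyltransferases. Polyadenylated RNA of 12 samples had been sequenced, in 6 groups of 2, all in the Columbia-0 background. IMA1 OE plants carried the IMA1 open reading frame behind the viral 35S promoter, which is active in nearly all cells (line #7-4). IMA1 encodes a short peptide that raises iron uptake. The control plants carried EYFP, a fluorescent protein, behind the same promoter (EYFP OE). Each transgene was represented by 1 line. The groups were IMA1 OE roots and IMA1 OE rosettes from Fe-deficient medium, IMA1 OE roots and IMA1 OE rosettes from full medium, and EYFP OE roots and EYFP OE rosettes from full medium. All seedlings spent 10 days on full medium with sucrose under continuous light, 25 to a plate, and 72 hours after transfer. The Fe-deficient medium held no iron and 100 µM FerroZine, an iron chelator. EYFP OE plants on Fe-deficient medium were not analysed here, so in the Fe-deficient comparisons line and medium change together and cannot be told apart.

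Phenylalanine ammonia-lyase (PAL), cinnamate 4-hydroxylase (C4H) and 4-coumarate:CoA ligase (4CL) turn phenylalanine into p-coumaroyl-CoA, from which the branches part. HCT, C3'H and CCoAOMT1 lead to feruloyl-CoA, and CCR, CAD, F5H1 and COMT1 carry it on to the lignin building blocks. Chalcone synthase (CHS) opens the flavonoid branch, which ends in flavonols or, through DFR and LDOX, in anthocyanins. Feruloyl-CoA is also the substrate of F6'H1, the first enzyme of the coumarins that iron-starved Arabidopsis roots secrete to mobilise iron.

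Values are the authors' normalized expression, which has no stated unit and no read depth, so no counting interval is given. They are treated as scaled to gene length. Changes are differences of log2(value + 1), IMA1 OE minus EYFP OE, with the standard error (SE) of limma. A gene was tested when at least 2 of the 4 libraries of its table reached 1, and it passed when its p, adjusted by Benjamini-Hochberg over all tested genes, was under 0.05. The labels do not say whether replicates came from separate cultures, so the p-values measure the spread between these libraries, which may be technical. IMA1 itself lay between 322 and 483 in the 8 IMA1 OE columns, against 1.87 to 9.03 in the 8 EYFP OE columns. The root marker list of 5 genes summed to 254 to 306 in root columns and to 1.85 to 3.63 in rosette columns. The green leaf list of 6 genes summed to 133 to 283 in root columns and to 24520 to 29271 in rosette columns. Column titles in 1 table disagree with the sample labels: IMA1 OE rosettes from Fe-deficient medium are titled as grown with iron. These columns were assigned through the sample descriptions, and that doubt bears on every Fe-deficient rosette value here.

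In IMA1 OE roots from Fe-deficient medium, 5 of the 8 tested entry genes of the pathway, the lignin enzyme HCT and the glucosyltransferase UGT72E1 were higher than in EYFP OE roots. Of 29 tested members 7 passed, against 0.92% of all 19673 tested genes: PAL1, PAL2, C4H, 4CL1, 4CL2, HCT and UGT72E1. All 7 were higher in IMA1 OE, against 0.773% of all tested genes, and none was lower, against 0.147%. The members were chosen with earlier results of these data known, so these shares only describe the chosen genes. The other 22 tested members did not pass, with adjusted p from 0.0508 to 0.976, and the median change of the 29 was 0.01 on the log2 scale, against -0.02 over all tested genes. At an unadjusted p under 0.05 there were 18 of the 29 members, against 9.14% of all tested genes. Both IMA1 OE libraries lay above both EYFP OE libraries in 13 members and below them in 10, against 17.8% and 21.6% of all tested genes. In the authors' deposited table, whose Z-test p-values are rounded, 9 of the 34 members were higher and 5 lower at p under 0.05, against 0.667% and 0.339% of all genes. The 5 lower were COMT1, CHS, FLS1, DFR and LDOX. PAL3, MYB11, MYB111, PAP1 and TT8 were under 1 in all 4 libraries of this table and were not tested.

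PAL makes cinnamate by removing ammonia from phenylalanine, the committed step of the pathway. PAL1 (AT2G37040, chr2:15557367-15560755) had 463 and 566 in IMA1 OE roots from Fe-deficient medium, against 259 and 249 in EYFP OE roots, a change of 1.01 on the log2 scale (SE 0.11, limma adjusted p = 0.0287). PAL2 (AT3G53260, chr3:19744018-19747114) had 306 in both IMA1 OE libraries, against 90.0 and 85.8 in EYFP OE, a change of 1.79 (SE 0.06, limma adjusted p = 0.000603). Both genes stood above their EYFP OE libraries. The equal PAL2 values are not taken as a measure of precision, and the cause of the tie was not tested. PAL4, a minor paralogue, had 21.5 and 18.1 in IMA1 OE, against 17.8 and 11.6 in EYFP OE, and did not pass. PAL2 made up 38.7% and 34.4% of the summed PAL values in IMA1 OE, against 24.6% and 24.8% in EYFP OE. The summed PAL values were 791 and 891 in IMA1 OE, against 367 and 346 in EYFP OE.

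C4H (AT2G30490, chr2:12993625-12996012), the P450 enzyme that hydroxylates cinnamate, had 503 and 542 in these IMA1 OE roots, against 352 and 372 in EYFP OE roots. Its change was 0.53 (SE 0.07, limma adjusted p = 0.0482), the smallest of the 7. 4CL1 (AT1G51680, chr1:19158746-19161737) activates p-coumarate with coenzyme A and had 269 and 261 in IMA1 OE, against 114 and 111 in EYFP OE, a change of 1.23 (SE 0.05, limma adjusted p = 0.00173). 4CL2 (AT3G21240, chr3:7454269-7457404), a second ligase gene, had 159 and 149.9 in IMA1 OE, against 54.5 and 52.4 in EYFP OE, a change of 1.51 (SE 0.06, limma adjusted p = 0.00131). The groups did not overlap in any of these genes. The 2 other ligase genes did not pass. 4CL3, whose product acts mainly in flavonoid synthesis, had 8.47 and 12.02 in IMA1 OE, against 11.5 and 12.1 in EYFP OE, and 4CL5 had 27.1 and 26.3, against 27.6 and 25.0. Thus 5 of the 8 tested entry genes passed, all higher, with a median change of 0.77 over the 8.

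The upstream sequences of the members are shown because AC elements, short C-rich boxes bound by MYB proteins, are known from promoters of lignin genes. Searched on both strands were ACCTACC (AC-I), ACCAACC (AC-II), ACCTAAC (AC-III) and, apart from them, CACGTG (the G-box, a light response element), with no overlap among the matches found. The windows are the 300 bases before the RefSeq gene start in TAIR10.1, found for all 34 members. An AC element lay in 8 of the 34 windows, against 7.16% of 27443 protein-coding genes, and in 5 of the 9 lignin enzyme windows, 2 of the 9 entry gene windows and 1 regulator window. Of the 7 genes that passed, 4CL2 and HCT had one. A match describes the letters and is no evidence of binding. The 10 sites are given below as 30 bases from the gene's own strand, with the element in capitals.
4CL2, chr3:7457526-7457555, minus strand: tagagtagctcACCAACCcctacatgaact
4CL2, chr3:7457417-7457446, minus strand: aataacatttcACCAACCacaaattctttt
4CL3, chr1:24171737-24171766, minus strand: gaaaatatgaaACCTACCaaaccaaaacga
4CL3, chr1:24171685-24171714, minus strand: ccattccctctACCTACCccaatttcttct
HCT, chr5:19838307-19838336, minus strand: ggaacgggtttACCAACCccggatagaaaa
C3'H, chr2:17060656-17060685, minus strand: taaatcggttcACCAACCccctccctaata
CCoAOMT1, chr4:16310185-16310214, plus strand: ccaagagattcACCTACCacggtacacttc
CCR1, chr1:5478573-5478602, plus strand: tgtttcttcttcttccACCAACCcctcttt
CAD5, chr4:16389160-16389189, minus strand: attgtttgttcACCAACCcccgtggaccct
TT8, chr4:6181756-6181785, plus strand: acgtctggtgaACCAACCattcaaaaatca
The sites of 4CL2 and of CCR1 stand next to annotated neighbours, and both 4CL2 sites lie inside the span of AT3G21250. The AC-II element begins 90 bases before the gene start in HCT and 22 bases before it in C3'H. A G-box lay in the windows of PAL4, CHS, F3H, DFR and MYB12, 5 of 34, against 7.09% of all windows. UGT72E1 and PAL2, the members with the 2 largest rises in IMA1 OE roots from Fe-deficient medium, are shown for contrast with the 150 bases before the gene start, which hold none of the 4 motifs.
PAL2, chr3:19747115-19747264, minus strand: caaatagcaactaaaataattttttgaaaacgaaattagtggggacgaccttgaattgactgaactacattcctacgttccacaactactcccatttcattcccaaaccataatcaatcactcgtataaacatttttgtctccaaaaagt
UGT72E1, chr3:18857041-18857190, minus strand: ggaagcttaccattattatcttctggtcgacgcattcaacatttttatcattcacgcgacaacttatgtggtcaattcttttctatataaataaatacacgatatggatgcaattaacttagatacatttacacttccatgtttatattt

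Among the 9 lignin enzymes HCT passed in IMA1 OE roots from Fe-deficient medium, and C3'H and CCoAOMT1, the next toward feruloyl-CoA, did not. HCT (AT5G48930, chr5:19836299-19838235), which transfers p-coumaroyl groups to shikimate, had 231 and 207 in IMA1 OE, against 136 and 127 in EYFP OE, a change of 0.73 (SE 0.08, limma adjusted p = 0.0288). C3'H, which hydroxylates the shikimate ester, had 123 and 137 in IMA1 OE, against 87.4 and 87.4 in EYFP OE, a change of 0.56 that lay just outside the threshold (limma adjusted p = 0.0517). CCoAOMT1, the methyltransferase that gives feruloyl-CoA, had 996 and 1002 in IMA1 OE, against 759 and 756 in EYFP OE, a change of 0.40 just outside the threshold (limma adjusted p = 0.0508). It held the highest values of all members in these libraries. With all libraries kept, other settings gave limma adjusted p of 0.0345 to 0.365 for C3'H and 0.05003 to 0.554 for CCoAOMT1. CCR1, the reductase that commits feruloyl-CoA to lignin, had 128 and 118 in IMA1 OE, against 130 and 115 in EYFP OE, and the groups overlapped. The aldehyde reducing dehydrogenases went opposite ways without passing. CAD5 had 91.0 and 76.2 in IMA1 OE, against 68.6 and 64.6 in EYFP OE, and CAD4 had 159 and 168, against 185 and 179. F5H1, the ferulate 5-hydroxylase of syringyl lignin, had 10.3 and 10.8 in IMA1 OE, against 15.9 and 20.3 in EYFP OE, a change of -0.72 (SE 0.13, limma adjusted p = 0.131). COMT1, the methyltransferase that follows F5H1, had 259 and 286 in IMA1 OE, against 315 and 348 in EYFP OE. CCR2, the second reductase, had 21.1 and 17.7, against 20.9 and 19.1. The median change of the 9 was 0.01.

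The calls of PAL1, C4H and HCT depend on single libraries and settings. Without EYFP OE replicate 1, EYFP OE replicate 2 or IMA1 OE replicate 2 the limma adjusted p of PAL1 was 0.194, 0.189 and 0.0657. The adjusted p of C4H was 0.176 to 0.303, and that of HCT 0.0904 to 0.201, with each of the 4 libraries left out in turn. Without the intensity trend it was 0.0779 for PAL1, 0.144 for C4H and 0.0884 for HCT, and without the filter on low values 0.392, 0.386 and 0.323.

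**Figure D1:**
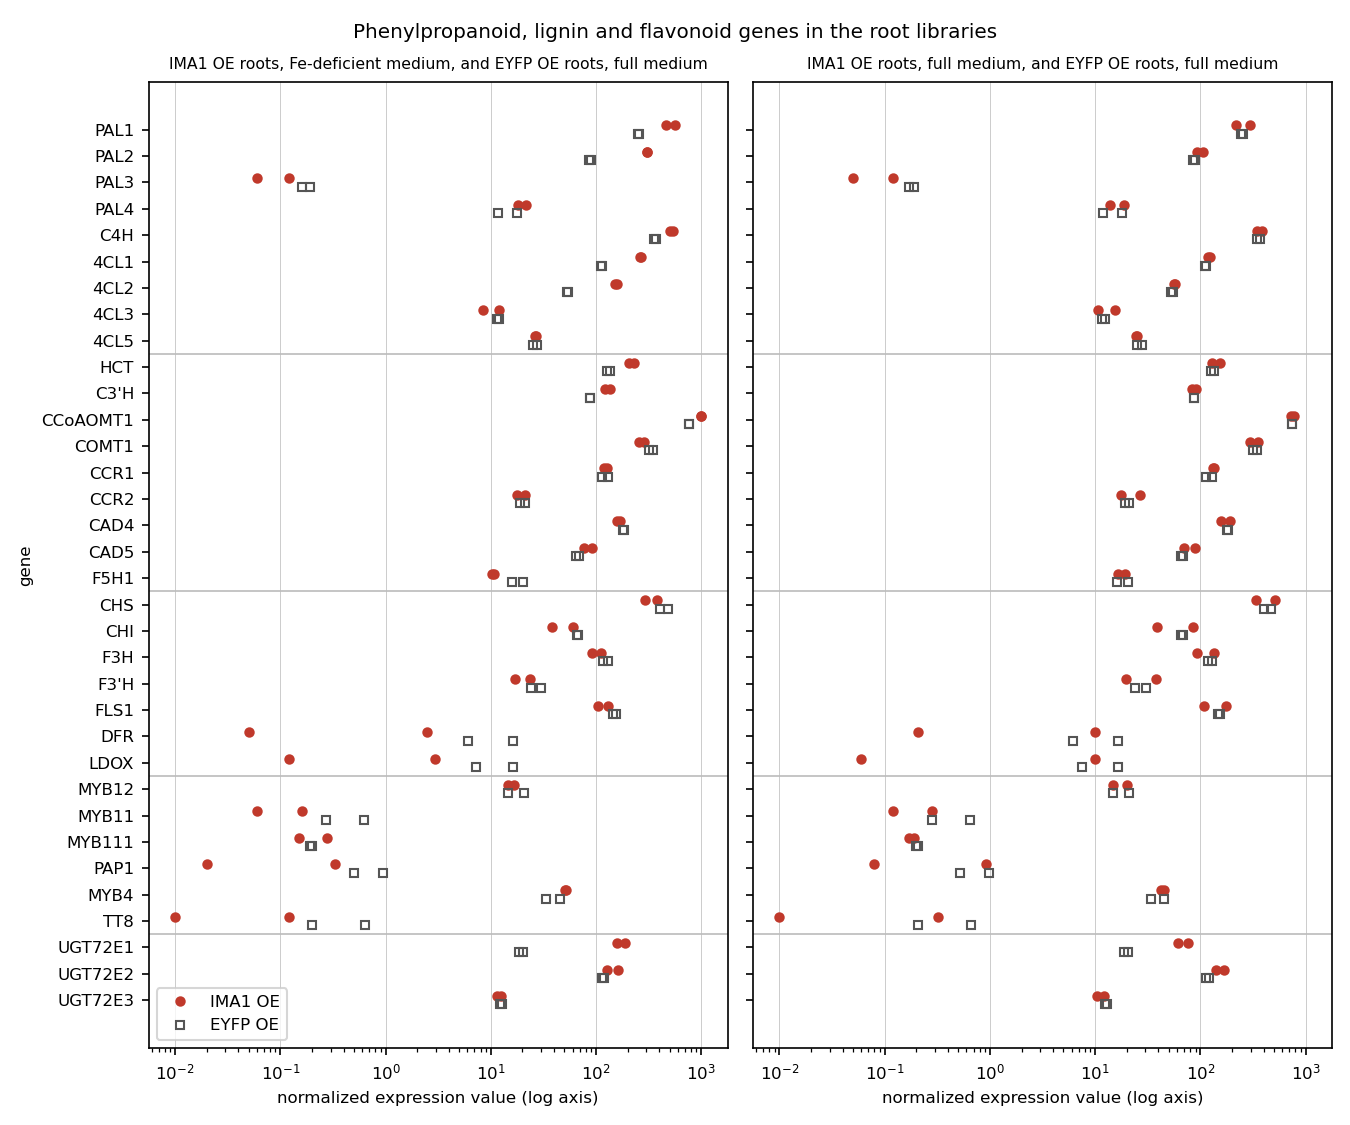
Normalized expression of the 34 members in the root libraries, on a log axis, with 1 point per library: IMA1 OE as red circles, EYFP OE as grey squares. The left panel holds IMA1 OE from Fe-deficient medium and the right panel IMA1 OE from full medium, EYFP OE being from full medium in both. PAL1, PAL2, C4H, 4CL1, 4CL2, HCT and UGT72E1 stand apart on the left, and DFR and LDOX spread widely on both sides.

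UGT72E1, UGT72E2 and UGT72E3 attach glucose to lignin precursors, UGT72E1 mainly to the aldehydes and the others to the alcohols. UGT72E1 (AT3G50740, chr3:18855043-18857040) had 189.6 and 159 in IMA1 OE roots from Fe-deficient medium, against 18.6 and 20.2 in EYFP OE roots. That was the largest change of any member, 3.10 on the log2 scale (SE 0.10, limma adjusted p = 0.000674). With no filter on low values its adjusted p was 0.0521. UGT72E2 had 162 and 128 in IMA1 OE, against 120.3 and 113 in EYFP OE, a change of 0.30 that did not pass (limma adjusted p = 0.551). UGT72E3 had 11.5 and 12.6 in IMA1 OE, against 12.9 and 12.3 in EYFP OE, with overlapping groups. UGT72E1 accounted for 52.2% and 53.1% of the summed values of the 3 genes in IMA1 OE roots, against 12.2% and 13.9% in EYFP OE roots. UGT72E2 held 44.6% and 42.7% in IMA1 OE, against 79.3% and 77.7% in EYFP OE, where it led the family.

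All 7 flavonoid enzymes had both IMA1 OE libraries from Fe-deficient medium below both EYFP OE root libraries, a pattern of 21.6% of all tested genes, and none passed the test. The median change of the 7 was -0.42, and 4 of them were under 0.05 in unadjusted p by limma, against 9.14% of all tested genes. CHS, the entry enzyme of the branch, had 289 and 379 in IMA1 OE roots, against 408 and 479 in EYFP OE roots, a change of -0.42 (limma adjusted p = 0.490). CHI, the isomerase after it, had 38.2 and 60.6, against 65.5 and 67.5, a change of -0.46 (limma adjusted p = 0.615). In both genes the higher IMA1 OE library came close to the lower EYFP OE library. F3H, F3'H and FLS1, the hydroxylases and the flavonol synthase, changed by -0.29, -0.41 and -0.36. CHS, FLS1, DFR and LDOX were lower at p under 0.05 in the authors' Z-test, against 0.339% of all genes. CHI, F3H and F3'H were not.

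DFR and LDOX, which lead to anthocyanins, had the largest differences downward. DFR had 0.05 and 2.5 in IMA1 OE roots from Fe-deficient medium, against 6.01 and 16.3 in EYFP OE roots, a change of -2.52 (SE 0.69, limma adjusted p = 0.336). LDOX had 0.12 and 2.98 in IMA1 OE, against 7.27 and 16.4 in EYFP OE, a change of -2.51 (SE 0.67, limma adjusted p = 0.323). The groups did not overlap, and in each group replicate 2 was well above replicate 1 for both genes. Without IMA1 OE replicate 1 the changes were -1.65 for DFR and -1.59 for LDOX, and -0.13 for CHI and -0.22 for CHS. With a pseudocount of 0.1 in place of 1 they were -4.002 for DFR and -3.74 for LDOX. Of 10 genes of flavonoid decoration and transport, 8 were tested, all 8 had negative changes and none passed, with a median of -0.74. The largest were TT19, which carries anthocyanins to the vacuole, at -2.48, and the anthocyanin glucosyltransferase UGT75C1 at -1.92.

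Green leaf transcripts in the root libraries stood lower beside these genes. The 6 green leaf markers summed to 133 and 208 in IMA1 OE roots from Fe-deficient medium, against 283 and 279 in EYFP OE roots. RBCS1A, the Rubisco small subunit, had 55.4 and 98.0 in IMA1 OE, against 135 and 136 in EYFP OE. All 5 tested leaf markers had negative changes and none passed, while LHCB1.1 was at 0.44 to 2.43 and CA1 under 1 in all 4 libraries. Less RNA per cell and fewer cells of a type cannot be told apart in whole roots, and the part of the leaf transcripts in the flavonoid values was not tested. The 5 xylem markers summed to 234 and 201 in IMA1 OE, against 267 and 206 in EYFP OE, with overlapping groups.

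**Figure D2:**
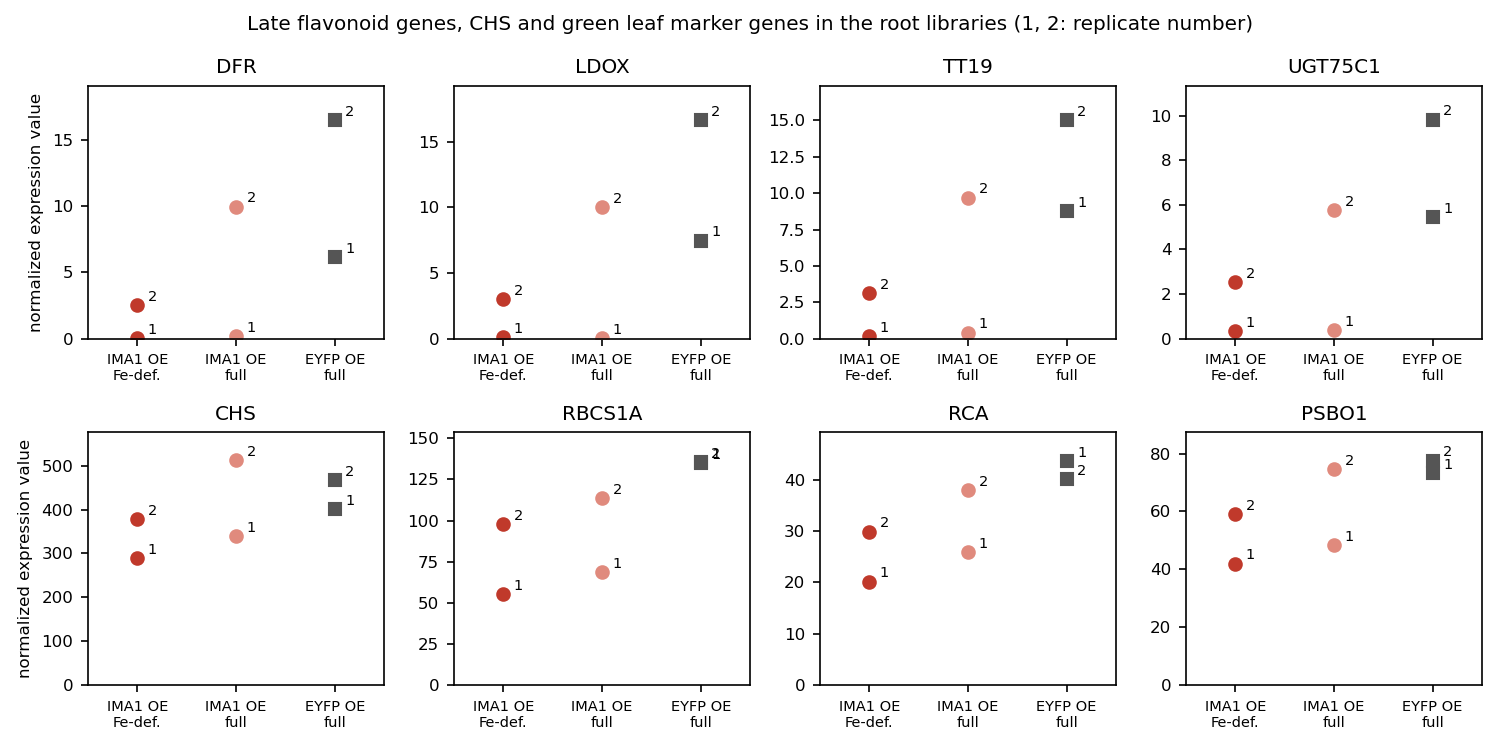
Normalized expression of DFR, LDOX, TT19, UGT75C1, CHS and the leaf markers RBCS1A, RCA and PSBO1 in each root library, with the replicate number beside the point. IMA1 OE from Fe-deficient medium comes from its own table, and the other 2 groups come from the full-medium table. Replicate 1 is the lower IMA1 OE library in all 8 genes on both media, and DFR and LDOX were under 0.3 there.

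Of the 6 regulators, 2 were tested in roots and neither passed. MYB12, which switches on flavonol genes in roots, had 16.7 and 14.7 in IMA1 OE from Fe-deficient medium, against 20.8 and 14.6 in EYFP OE. MYB4, a repressor of C4H, had 52.3 and 50.8 in IMA1 OE, against 45.3 and 33.5 in EYFP OE, a change of 0.40 (limma adjusted p = 0.506). Of the other flavonoid regulators 4 of 9 were tested and none passed. The largest changes were TTG1 at -0.14 and HY5 at -0.05. Of 7 lignin and secondary wall regulators 6 were tested and none passed, the largest changes being MYB83 at -0.25 and MYB85 at -0.17.

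Genes next to the members in the pathway were read from lists. In the coumarin branch, 5 of 6 genes passed and all 5 were higher, against 0.773% of all tested genes. This list too was chosen with earlier results of these data known, so the share is a description. F6'H1 had 479 and 476 in IMA1 OE roots from Fe-deficient medium, against 43.0 and 59.9 in EYFP OE roots, a change of 3.21. S8H, which makes fraxetin, changed by 7.76 and CYP82C4, which makes sideretin, by 6.97. The glucosidase BGLU42 changed by 2.80 and the coumarin exporter PDR9 by 1.95. COSY, which closes the coumarin ring, had 83.4 and 87.8, against 61.1 and 63.9, and did not pass (limma adjusted p = 0.0652). MYB72, the root regulator of this branch, had 54.2 and 51.1 in IMA1 OE, against 0.21 and 0.25 in EYFP OE. Of 9 genes of lignin polymerisation and monolignol handling, 8 were tested and none passed. CSE, an esterase of the caffeoyl shikimate route, had 174 and 174, against 133 and 133, a change of 0.38 (limma adjusted p = 0.0603), and BGLU45, a monolignol glucosidase, changed by -0.41. None of 3 tested sinapate ester genes passed, with SNG1 at 0.93 and UGT84A2 at -0.18. The F-box proteins that mark PAL for breakdown gave none of 4: KFB20 had 15.2 and 22.0 in IMA1 OE, against 7.09 and 8.72 in EYFP OE, and KFB01 had 55.2 and 58.4, against 33.3 and 39.3.

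In IMA1 OE roots kept on full medium, UGT72E1 was the member that stood apart, and no member passed. None of 29 tested members was called, against 0.0355% of the 19741 tested genes, and 2 had an unadjusted p under 0.05 by limma, against 4.22% of all genes. In the authors' deposited table UGT72E1 and UGT72E2, 2 of 34 members, were higher at p under 0.05, against 0.321% of all genes, and none was lower, against 0.125%. Both tables of roots use the same EYFP OE libraries. UGT72E1 had 76.3 and 60.9 in IMA1 OE roots from full medium, against 18.8 and 20.4 in EYFP OE roots, a change of 1.75 (SE 0.12, unadjusted p = 4.56e-05, limma adjusted p = 0.0764). UGT72E2 had 169 and 140.2, against 119.9 and 112, a change of 0.40 (SE 0.11, limma adjusted p = 0.867). UGT72E3 had 10.4 and 12.1, against 13.1 and 12.5, with both IMA1 OE libraries lower. UGT72E1 held 29.9% and 28.6% of the summed UGT72E values in IMA1 OE, against 12.4% and 14.0% in EYFP OE.

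The entry genes that passed on Fe-deficient medium lay near the EYFP OE level on full medium. PAL2 had 92.9 and 105 in IMA1 OE, against 89.6 and 85.6 in EYFP OE, a change of 0.17 (SE 0.08). PAL1 had 220.1 and 293, against 256 and 245, and the groups overlapped. The changes of C4H, 4CL1, 4CL2 and HCT were 0.04, 0.11, 0.08 and 0.12, and those of C3'H and CCoAOMT1 were 0.00 and 0.02. CAD5 had 89.4 and 70.7, against 68.7 and 64.9, a change of 0.25, and 4CL5 had 25.1 and 24.7, against 27.7 and 25.2. In all, 7 members had both IMA1 OE libraries above EYFP OE and 2 had both below, against 13.8% and 16.2% of all tested genes.

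The flavonoid enzymes overlapped between groups in roots on full medium, with a wide gap between the IMA1 OE libraries. DFR had 0.21 and 9.98 in IMA1 OE, against 6.19 and 16.6 in EYFP OE, and LDOX had 0.06 and 9.99, against 7.46 and 16.7. CHI had 38.5 and 86.0 in IMA1 OE, against 66.0 and 68.0 in EYFP OE. In IMA1 OE replicate 1 all 7 flavonoid enzymes were below replicate 2, and the leaf markers summed to 158 there and 252 in replicate 2, against 283 and 280 in EYFP OE. Their part in the flavonoid values was not tested. No tested gene of the neighbouring lists passed on full medium, and only tested genes are ranked here. In the coumarin branch S8H and CYP82C4 were higher at p under 0.05 in the authors' Z-test, against 0.321% of all genes. F6'H1, COSY, BGLU42 and PDR9 were not. The 2 largest changes of each list were S8H at 2.15 and CYP82C4 at 2.80 in the coumarin branch, PRX52, a peroxidase, at 0.87 and BGLU46 at -0.16 in lignin polymerisation, and SNG1 at 0.72 and REF1 at 0.27 in sinapate esters. They were TT19 at -1.69 and UGT75C1 at -1.46 in flavonoid decoration, TTG1 at -0.07 and HY5 at -0.05 in flavonoid regulators, MYB32 at 0.25 and MYB63 at 0.16 in wall regulators, and KFB20 at 0.78 and KFB01 at 0.38 among the F-box proteins.

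**Figure D3:**
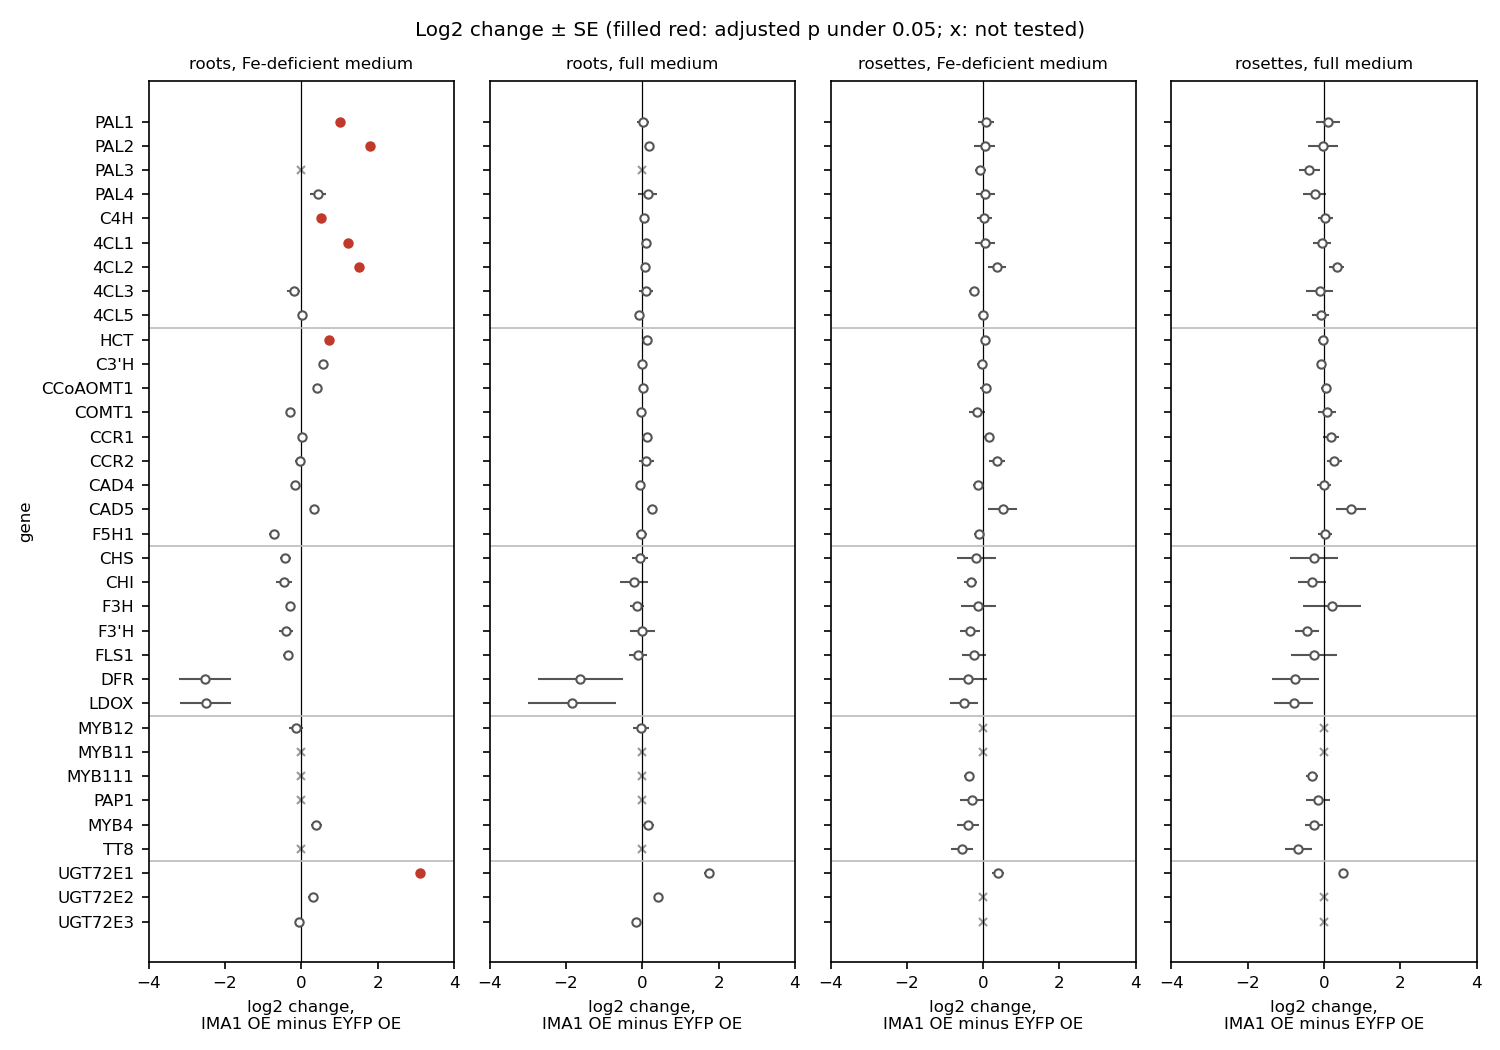
Log2 change of each member, IMA1 OE minus EYFP OE, with SE bars, in the 4 comparisons, for IMA1 OE roots and rosettes from Fe-deficient and full medium against EYFP OE of the same tissue from full medium. Filled red points passed the threshold and crosses mark members not tested. Red points appear for 7 members in the panel of roots from Fe-deficient medium and none in the other panels.

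In rosettes no member passed on either medium. On Fe-deficient medium 0 of 30 tested members were called, against 0.00535% of 18691 tested genes, and 0 had an unadjusted limma p under 0.05, against 5.17%. On full medium 0 of 30 were called, against 0.0107% of 18731 tested genes, and 1 had an unadjusted p under 0.05, against 5.43%. MYB12, MYB11, UGT72E2 and UGT72E3 were not tested in rosettes. In the authors' deposited table for Fe-deficient medium no member was higher or lower at p under 0.05, against 0.684% and 0.265% of all genes. In their deposited table for full medium none was higher, against 0.792%, and DFR was lower, against 0.39%. UGT72E1 had 19.6 and 25.4 in IMA1 OE rosettes from Fe-deficient medium, against 17.0 and 16.7 in EYFP OE rosettes, a change of 0.39 (SE 0.15, limma adjusted p = 0.982). On full medium it had 25.4 and 23.7, against 17.3 and 16.9, a change of 0.50 (SE 0.12, unadjusted p = 0.00878, limma adjusted p = 0.491). Both IMA1 OE libraries were above both EYFP OE libraries on each medium. On Fe-deficient medium 2 members had that pattern and 4 the opposite one, against 13.8% and 19.5% of all tested genes. On full medium 3 had it and 3 the opposite one, against 13.1% and 18.5%.

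The entry genes of rosettes overlapped between groups or nearly so. PAL2 had 47.1 and 76.5 in IMA1 OE rosettes from Fe-deficient medium, against 51.2 and 66.7 in EYFP OE, and 4CL1 had 73.0 and 51.2, against 70.7 and 49.6. 4CL2 had 8.66 and 7.81 on full medium, against 7.68 and 5.21, a change of 0.33. CCR2 had 1.19 and 1.73 in IMA1 OE from Fe-deficient medium, against 0.73 and 1.08 in EYFP OE, and 1.39 and 1.18 on full medium, against 0.74 and 1.08. C3'H had 25.5 and 26.5 on full medium, against 27.9 and 26.8. 4CL3 had 10.2 and 10.8 on Fe-deficient medium, against 13.4 and 12.1. These small separations did not pass. CAD5 had the largest positive change of any member on both media, but its groups overlapped: it had 31.96 and 16.6 in IMA1 OE from Fe-deficient medium, against 20.0 and 12.5 in EYFP OE, and 38.5 and 18.8 on full medium, against 20.3 and 12.7.

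In rosettes CHS differed more between replicates than between lines. It had 70.8 and 135 in IMA1 OE rosettes from Fe-deficient medium and 55.8 and 154 in IMA1 OE rosettes from full medium, against 72.3 and 169.6 in EYFP OE in the first table. All 7 flavonoid enzymes had negative changes on Fe-deficient medium and 6 of 7 on full medium. Their medians were -0.33 and -0.31, against -0.028 and -0.034 over all tested genes. The groups overlapped in 6 of the 7 on Fe-deficient medium and in all 7 on full medium. On Fe-deficient medium the direction of CHS, F3H, FLS1 and DFR turned in 2 of 9 alternatives each. MYB111, the flavonol regulator of shoots, had 5.37 and 5.39 on Fe-deficient medium, against 8.04 and 6.52, a change of -0.37 (limma adjusted p = 0.967), and 5.31 and 6.20 on full medium, against 8.17 and 6.63. TT8, a partner of the anthocyanin MYB proteins, had 0.77 and 1.64, against 1.70 and 2.76, and on full medium 0.51 and 1.69, against 1.72 and 2.81. CHI had 15.6 and 20.7 on Fe-deficient medium, against 21.7 and 24.2. PAP1, which switches on anthocyanin synthesis, had 1.95 and 2.30, against 4.08 and 1.92, and overlapped. The morning clock gene LHY also differed between replicates: it had 41.5 and 65.4 in IMA1 OE rosettes from Fe-deficient medium and 35.3 and 72.3 in those from full medium, against 17.0 and 81.0 in EYFP OE. LHY is 1 of 6 clock genes listed after the values were seen. The 6 summed to 137 and 185 in IMA1 OE rosettes from Fe-deficient medium, against 104 and 195 in EYFP OE. In roots the sum was higher in replicate 1, with 91.4 and 78.1 in IMA1 OE from Fe-deficient medium, against 91.1 and 78.0 in EYFP OE. The part of such a difference in the flavonoid values was not tested.

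No tested gene of the neighbouring lists passed in rosettes, and only tested genes are ranked here. In the coumarin branch 2 of 6 genes were tested on each medium, BGLU42 and COSY. On Fe-deficient medium the 2 largest changes of each list were TT19 at -0.82 and UGT79B1 at -0.60, MYBL2 at -0.43 and EGL3 at 0.22, MYB7 at -0.58 and MYB32 at -0.22, and KFB50 at -0.56 and KFB01 at 0.49. They were BGLU46 at 0.26 and LAC17 at -0.10 for lignin polymerisation, SNG1 at 0.22 and UGT84A2 at -0.10 for sinapate esters, and BGLU42 at -0.12 and COSY at 0.06 for coumarins. On full medium they were UGT79B1 at -1.03 and TT19 at -0.92, PAP2 at 0.19 and EGL3 at 0.15, MYB58 at 0.22 and MYB32 at -0.21, and KFB20 at 0.65 and KFB01 at 0.47. For the other lists they were CSE at 0.13 and LAC11 at -0.13, SNG1 at 0.25 and UGT84A2 at -0.17, and BGLU42 at -0.16 and COSY at 0.10.

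**Figure D4:**
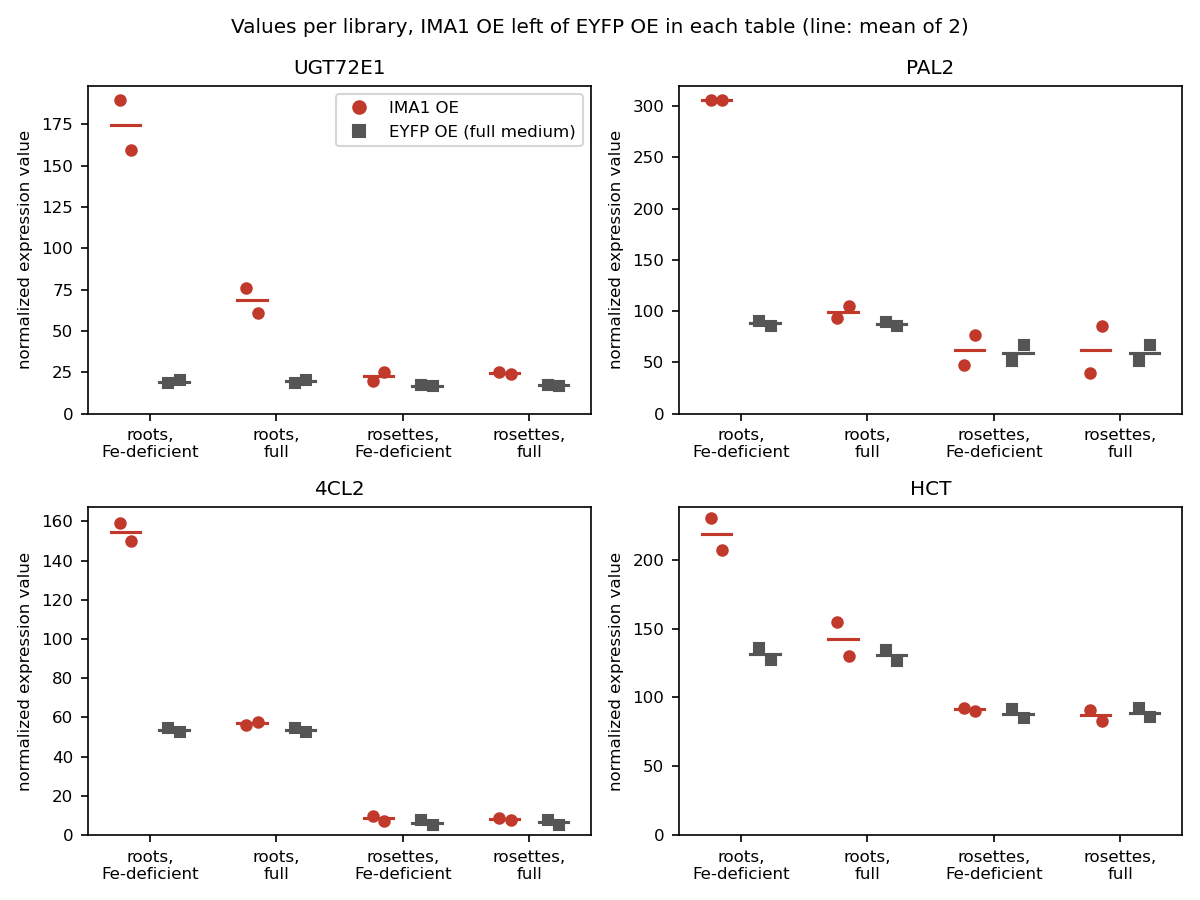
Normalized expression of UGT72E1, PAL2, 4CL2 and HCT in every library, with IMA1 OE left of EYFP OE in each of the 4 tables and a line at the mean of 2. Axes start at 0, tables were normalized separately, and EYFP OE is from full medium throughout. UGT72E1 stands at 159 and 189.6 in IMA1 OE roots from Fe-deficient medium and at 60.9 and 76.3 on full medium, and at no more than 25.4 in the other columns.

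The difference between the root change and the rosette change was tested directly on each medium. For Fe-deficient medium, UGT72E1 was the member that passed, 1 of 33 tested, against 0.313% of 21101 tested genes, and 8 members had an unadjusted limma p under 0.05, against 6.76%. Its root change exceeded its rosette change by 2.72 (SE 0.20, limma adjusted p = 0.00375). With replicate 1 or 2 of IMA1 OE or of EYFP OE left out in both tissues, the difference was 2.41 to 3.02 and its adjusted p 0.0601 to 0.152, so the call was lost each time. PAL2 followed with 1.75 (SE 0.32, limma adjusted p = 0.155) and 4CL1 with 1.18 (SE 0.29, limma adjusted p = 0.335). At the other end DFR had -2.12, LDOX -2.01 and F5H1 -0.62, none of which passed. In the coumarin branch S8H, CYP82C4, BGLU42 and F6'H1 passed, with differences of 7.31, 5.93, 2.92 and 2.89. Of these, only BGLU42 passed the filter on low values in rosettes.

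For full medium none of 33 members passed, against 0.0189% of 21161 tested genes, and 1 had an unadjusted limma p under 0.05, against 4.32%. UGT72E1 had the largest difference, 1.25 (SE 0.17, limma adjusted p = 0.108), followed by F3'H at 0.46 and MYB4 at 0.42. The largest in the other direction were LDOX at -1.04, DFR at -0.87 and CAD5 at -0.46. DFR had a difference of 0.026 with IMA1 OE replicate 1 left out in both tissues, so its direction rests on that replicate.

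Levels in the control line describe the RNA of the members in each organ. They come from the 2 full-medium tables, which were scaled separately, and are given as a description. Of 33 members listed at 1 or more in at least 2 libraries of a table, 25 had both EYFP OE root libraries above both rosette libraries and 7 had both below. Across all such genes these shares were 64.8% and 25.1%, so the member counts are near the background. UGT72E2 had 119.9 and 112 in EYFP OE roots, against 0.62 and 0.70 in EYFP OE rosettes, and UGT72E3 had 13.1 and 12.5, against 0.01 and 0.09. UGT72E1 was nearly equal in both organs, with 18.8 and 20.4 in roots, against 17.3 and 16.9 in rosettes. PAL3 was the reverse, with 0.17 and 0.19 in roots, against 10.0 and 11.7 in rosettes. MYB12 had 21.1 and 14.9 in roots, against 0.13 and 0.28 in rosettes, and its relative MYB111 had 0.20 and 0.21, against 8.17 and 6.63. Among lignin enzymes CCR2 had 21.2 and 19.4 in roots, against 0.74 and 1.08 in rosettes, while F5H1 had 16.2 and 20.5, against 61.3 and 72.0. CHS stood at 402 and 468 in roots, against 72.7 and 170.5 in rosettes, whereas DFR stood at 6.19 and 16.6, against 27.2 and 66.0.

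**Figure D5:**
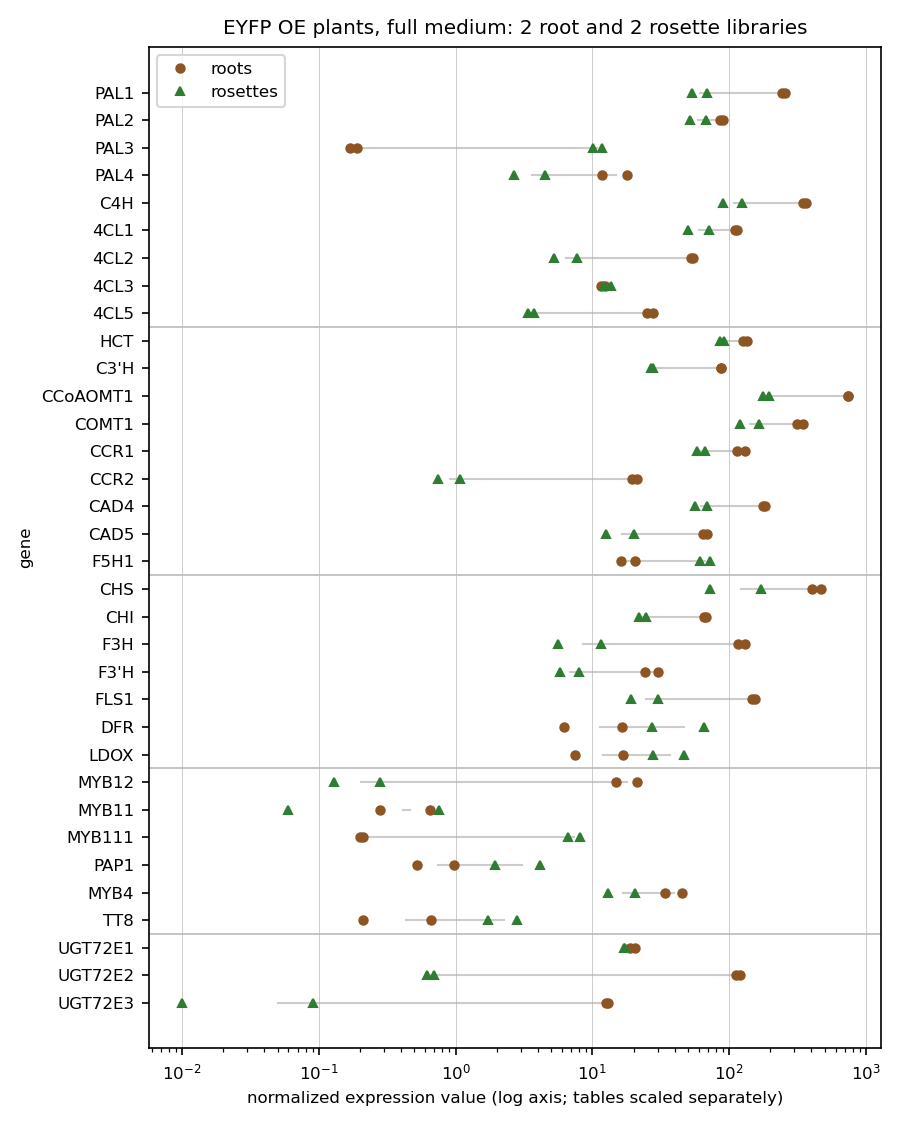
Normalized expression of the 34 members in EYFP OE plants on full medium, on a log axis, with brown circles for 2 root libraries and green triangles for 2 rosette libraries, joined at their means. The tables were scaled separately. UGT72E2, UGT72E3, MYB12 and CCR2 lie far higher in roots, and PAL3 and MYB111 far higher in rosettes.

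Near-identical copies can share reads, and how the authors assigned such reads is not given in the sources used here. RefSeq coding sequences were aligned pair by pair within families. UGT72E2 and UGT72E3 were 89.5% identical, with a longest shared run of 57 bases, and PAL1 and PAL2 were 82.6% identical, with a run of 80 bases. UGT72E1 was 72.4% identical to UGT72E2 and 71.4% to UGT72E3, with runs of 21 and 17 bases. 4CL1 and 4CL2 were 79.4% identical, with a run of 35 bases. The split of values is therefore uncertain for UGT72E2 with UGT72E3 and for PAL1 with PAL2, which share the longest runs. How many reads the other pairs share was not tested.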

How the data were processed

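Messenger RNA of 12 samples in 6 groups of 2 was measured by stranded mRNA sequencing, per the labels' protocols. Per the submitters' processing notes, bcl2fastq 1.8.4, Trimmomatic 0.35, Bowtie2 2.0.6, edgeR 3.12.1, limma 3.26.9 and the build TAIR10 were used, with no role or order given. The authors deposited 4 tables, each with 4 library columns of a normalized expression signal, named TMM in the table names and with no unit. They also deposited a p-value of a Z-test and a log2 fold change per gene, per the file headers. Sorted values of the columns of a table, above the median and without the highest ranks, differed by at most 12.54% in roots and 21.57% in rosettes. Replicates were tied in 0.464% to 0.646% of tested genes, and equal replicates are not taken as a measure of precision. Among genes with the same low value, under 1, in all 4 columns of a table, that value fell with gene length (Spearman rho -0.812 to -0.796). The depth of the libraries is unknown, so no interval or detection limit is given. EYFP OE columns recur in both tables of a tissue, and 0 per-sample columns were left unused.

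Each table was fitted whole with limma 3.58.1 in R 4.3.3 (lmFit, eBayes with intensity trend) on log2(value + 1), which understates changes of low genes, two-sided, with Benjamini-Hochberg adjustment over all tested genes and a threshold of 0.05. Genes entered the fit when 2 or more of the 4 libraries reached 1. The tissue difference was the interaction term over 8 columns, for genes passing in either table. The within-table fits were run on simulated data with independent errors and gene spreads shuffled across genes. That run held no replicate difference shared between lines, so it does not check the p-values of these libraries. Alternatives were a pseudocount of 0.1, no filter, no intensity trend, rescaling to a common upper quartile, a replicate block, both tables passing the filter, and each library left out. Members and lists were chosen with earlier results of these data known, and the clock genes and MYB72 after the values were seen. Named are members past the threshold, and the 4 largest rises and 4 largest falls without overlap. In each other list the genes past the threshold are named, or else the 2 largest changes among tested genes. Sequences and positions are RefSeq's, build TAIR10.1, read with Python 3.11.15.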

Additional observations from a re-analysis of the deposited data

Results flagged for a closer look

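For Fe-deficient medium, the members and all neighbouring lists were searched for changes that differed between roots and rosettes by the interaction test of limma. The 5 found were 1 of 33 tested members, 4 of 6 genes of the coumarin branch and none of the other neighbouring lists. MYB72, chosen after the values were seen, was outside this search and also passed, at 5.37. It did not pass the filter on low values in rosettes. The share over all tested genes was 0.313%. The root change exceeded the rosette change by 2.72 for UGT72E1, by 7.31 for S8H, by 5.93 for CYP82C4, by 2.92 for BGLU42 and by 2.89 for F6'H1, on the log2 scale. The last 4 belong to the coumarin branch, and of these only BGLU42 passed the filter on low values in rosettes. The UGT72E1 call was lost with a library left out in both tissues.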

How the results depend on the processing

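Of 7 members that passed in IMA1 OE roots from Fe-deficient medium, PAL2, 4CL1 and 4CL2 passed under all 9 alternatives. The count was 7 with a pseudocount of 0.1, 3 without the filter, 4 without the intensity trend, 8 with upper quartile rescaling, which added C3'H, and 4 to 5 with a library left out. Counts over all genes were 120 without the trend and 43 to 74 with a library left out, against 181. On full medium they were 141 without the filter and 0 to 5 with a library left out, against 7 in roots. In rosettes from Fe-deficient medium they were 130 and 0 to 3, against 1. In rosettes from full medium they were 113 and 0, and 1 with a pseudocount of 0.1, against 2. Without the filter more low genes are fitted, and the cause of its other effects was not tested. For the tissue difference on full medium the count over all genes was 133 without the filter, 1 with the filter passed in both tables and 0 with a library left out, against 4, and DFR turned from -0.87 to 0.026 without IMA1 OE replicate 1. On Fe-deficient medium it was 164 without the filter, 33 with a pseudocount of 0.1, 20 with both tables passing and 3 to 23 with a library left out in both tissues (12 without EYFP OE replicate 1), against 66, and 0 members passed with any library left out. No member passed in the other comparisons under any alternative.

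The samples share a replicate number, which no label calls a batch. Differences between replicates correlated between lines at r = 0.24 to 0.45 across tested genes and 0.78 to 0.87 across members, which are not independent. With the replicate block, 10 members passed in roots from Fe-deficient medium, with C3'H, DFR and LDOX added, and 323 genes. With it, 16 genes passed in roots from full medium and 60 in rosettes from full medium. The tissue difference gave 0 genes on full medium and 4 members on Fe-deficient medium, with 4CL1, 4CL2 and PAL2 added.

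The 2 libraries a group and an unknown depth limit the detectable differences.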
